A study of Mus musculus with 46 samples.

Results

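The genes that set healthy proximal tubular (PT) cells apart from the other sorted cell types of the mouse kidney were identified from sham-operated animals. RNA from 3 PT sham samples was compared in turn with 4 sham samples each of macrophages, endothelial cells and stromal cells, so that 15 of the 44 samples with a usable column entered the comparison. A gene was called an identity gene when it was higher in PT cells than in every one of the 3 other populations, each at a limma adjusted p under 0.05. Of 16934 genes tested, 1526 met this rule (9.01%), and 2040 were lower in PT cells than in all 3 populations (12%).

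All animals were wild-type (WT) young adult male C57BL/6 mice, and kidneys were perfused with PBS before dissociation. PT cells were sorted as LTL+ (Lotus lectin, which binds the brush border), macrophages as F4/80+, endothelial cells as CD31+ and stromal cells as PDGFRB+. Sham mice had no obstruction, whereas UUO mice underwent unilateral ureteric obstruction and rUUO mice had that obstruction reversed. The labels give neither the day of cull of UUO samples, for which the methods name more than 1 day, nor a mouse identity, and whether samples were pooled from several mice is not given in the sources used here.

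The proximal tubule is the first segment of the nephron after the glomerulus and reclaims most of the filtered glucose, amino acids, phosphate, bicarbonate and protein. Transporters of its apical brush border take solutes up from the filtrate, basolateral transporters pass them to the blood, and the receptors megalin and cubilin retrieve filtered protein. The segment is rich in mitochondria and peroxisomes, burns fatty acids, makes glucose, and secretes organic anions and drugs. The nuclear receptor HNF4 is among its known transcription factors.

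Levels are given as rescaled FPKM (fragments per kilobase of transcript, set to sum to 1000000 in each sample without the 37 genes of the mitochondrial chromosome), and differences as log2(rescaled FPKM + 1), a scale that understates the change of low genes. Of all FPKM in the PT sham samples, 71.7 ± 3.45% lay in these mitochondrial genes (SD, n = 3), against 25.6 ± 1.62% in macrophages, 37.7 ± 5.29% in endothelial cells and 37.5 ± 5.55% in stromal cells (SD, n = 4 each; exact two-sided permutation test, p = 0.0286 for each pair and 0.0286 adjusted over the 3, the smallest value that 3 against 4 samples allow). The remaining nuclear genes were therefore read from less material in PT cells, with a relative depth of 0.253 to 0.449 against 0.548 to 0.825 in the other sham samples, where 1 is the median total depth of all samples. Between samples of 1 sham population, Pearson's r across genes was 0.893 to 0.948. Endothelial sample 3 stood apart in that 11.9% of its rescaled sum lay in identity genes, against 7.76% to 9.36% in the other 3 endothelial samples. In bulk sorted samples, fewer cells of a type and less RNA per cell cannot be told apart.

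The label of the PT samples held against markers of the 3 other sorted populations. The 3 markers Lrp2, Slc34a1 and Slc5a12 summed to 7063 to 7956 in PT samples and to 46.8 to 237 in the 12 others. The 11 macrophage markers summed to 388 to 556 in PT cells against 62436 to 68866 in macrophages, the 11 endothelial markers to 58.7 to 95.1 against 8474 to 10751 in endothelial cells, and the 12 stromal markers to 115 to 140 against 4611 to 8008 in stromal cells. No marker of these 3 lists was at 0 in all 3 PT samples, and none was an identity gene. Of 5 T and B cell markers, 4 were listed at 0 in every PT sample.

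Markers of later nephron segments were not concentrated in the PT samples. The 6 thick ascending limb markers summed to 106 to 142 in PT cells, to 780 to 1070 in stromal samples and to 379 to 1951 in endothelial samples. Umod, the urinary glycoprotein of that limb, was measured at 68.9, 56.3 and 93.1 in the PT samples and at 461 to 631 in the stromal samples. The 6 collecting duct principal cell markers summed to 67.5 to 87.8 in PT cells and to 248 to 507 in stromal samples. The 5 intercalated cell markers summed to 72.7 to 99.8 in PT cells, above the 7.74 to 35.7 of macrophages. They overlapped the 31.7 to 238 of endothelial and the 73.1 to 147 of stromal samples. None of the markers of the thick ascending limb, distal convoluted tubule, collecting duct or podocyte was an identity gene. Their part in the comparisons of genes shared by all tubule segments was not tested.

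Among the identity genes with the largest differences were transporters and enzymes for which the segment is known. Of 1526 identity genes, 1416 had every PT sample above every other sham sample, which held for 1567 of all genes tested (9.25%). Identity genes took 49.7 ± 1.5% of the rescaled sum in PT cells (SD, n = 3), and between 6.56% and 11.9% in the other 12 samples. The PT share included the pseudogenes Gm10925 (3.07%), Gm28437 (2.32%) and Gm29216 (0.739%), whose fragments can be shared with the mitochondrial genes left out of the scale. The smallest log2 difference of the identity genes, that from the nearest of the other populations, had a median of 2.01, beside −1.22 over all genes tested. The rule chose the identity genes by these same values, so their separation, share and differences are descriptions. The smallest of 3 differences also lies low by its definition over all genes. It was under 1 for 191 genes, 1 to 2 for 565, 2 to 3 for 353, 3 to 5 for 320 and 5 or more for 97. Just inside the threshold were Cyfip2 and Commd9, with differences of 0.89 and 1.14, and just outside were Evi5 and Lin7a, with differences of 0.6 and 1.95.

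Slc5a2, the low-affinity sodium-glucose cotransporter of the early proximal tubule, stood farthest from the other populations on the scale used here. It was measured at 1085, 1134 and 966 in the PT samples, at 15.7, 15.3, 20.8 and 11.4 in macrophages, at 17.4, 4.34, 52.7 and 14.3 in endothelial cells and at 13.6, 3.56, 18.0 and 4.59 in stromal cells. All PT samples lay above all others, and endothelial sample 3 was the highest of those. The log2 difference was 5.97 from endothelial cells (standard error 0.59, limma adjusted p = 2.15e-07), 6.01 from macrophages and 6.85 from stromal cells. The first rank depended on the scale. Acsm2 had a larger smallest difference with FPKM as deposited (4.94 against 4.76), TPM (4.64 against 4.58) and median of ratios (6.38 against 6.17). It did not with quantile normalization or when rescaled over protein-coding genes.

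**Figure D1:**
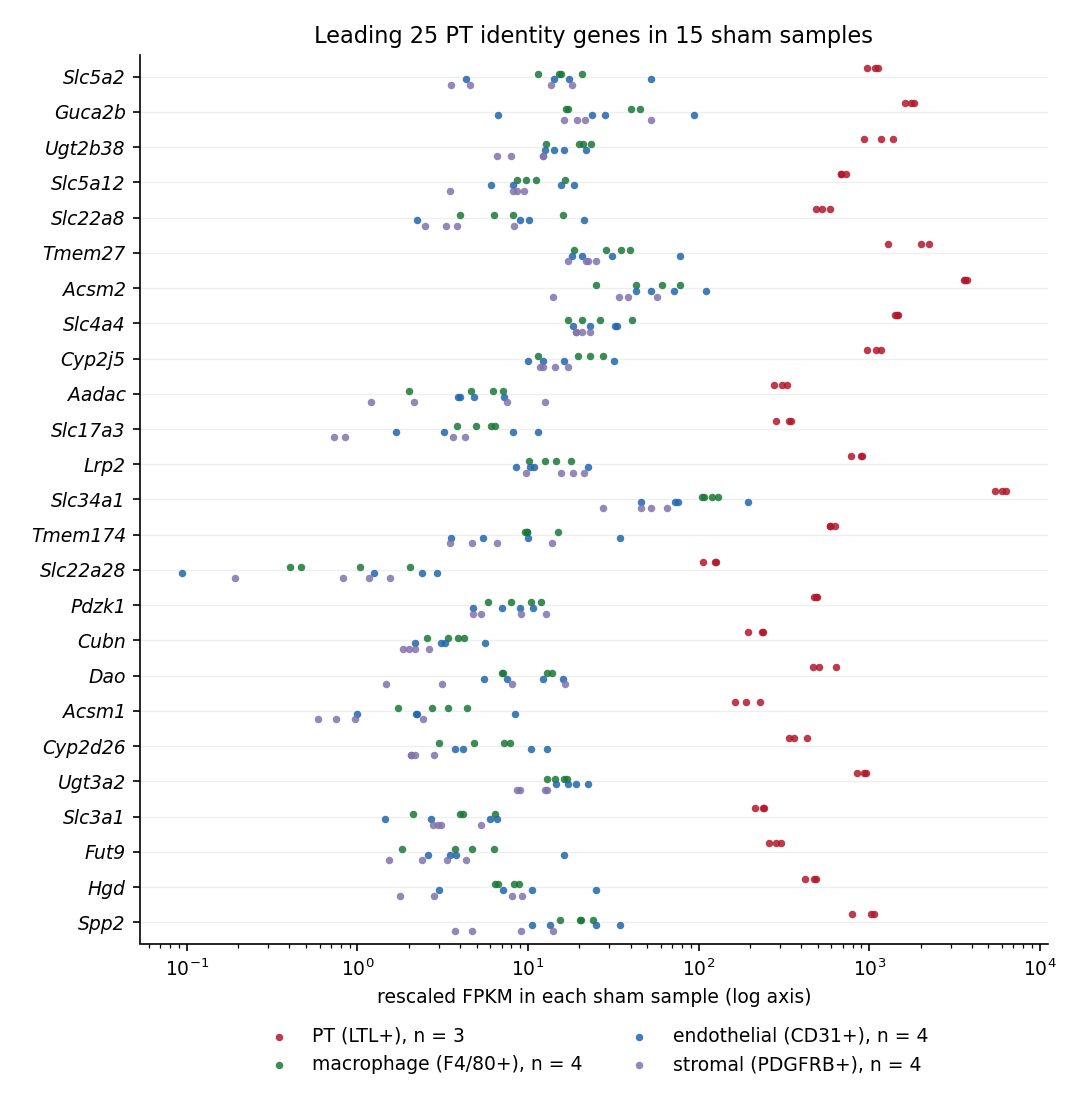
Rescaled FPKM (log axis) of the 25 identity genes with the largest smallest log2 difference, from Slc5a2 (5.97) at the top to Spp2 (5.52), with 1 point per sham sample and colour for the sorted population. All 3 PT samples lie above all 12 other samples for each gene, and endothelial sample 3 is the highest endothelial sample for 23 of the 25.

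The other leading genes were mostly carriers and enzymes. Guca2b was at 1842, 1629 and 1755 in PT cells and at 6.7 to 93.6 elsewhere, a smallest difference of 5.96 (limma adjusted p = 2.87e-07). Conjugating and oxidising enzymes were represented by Ugt2b38 (1163 ± 225, difference 5.86), Ugt3a2 (difference 5.58), Cyp2j5 (1080 ± 97.6, 5.71) and Cyp2d26 (378 ± 48.9, 5.58). Amino acid breakdown was represented by Dao, D-amino acid oxidase (537 ± 87.9, 5.63), and Hgd of tyrosine breakdown (462 ± 35.1, 5.54). Fut9, a fucosyltransferase that makes the Lewis x epitope, was at 282 ± 24.8 with a difference of 5.55, and Tmem174, a membrane protein, was at 602 ± 21.8 with a difference of 5.66.

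HNF4 is a known regulator of such genes, and short stretches of promoter that hold its motif are shown because 4 genes with a difference of 5 or more carry it. Promoters span 250 bases before to 50 bases after each RefSeq gene start (build GRCm38.p6). The capitals mark the motif CAAAGTCCA, searched on both strands, and the stretch of Nat8 holds it as the reverse complement.
Pdzk1: atctttgtcCAAAGTCCAgtgagttcca
Slc3a1: ttggctggaCAAAGTCCAgccatgatta
Agxt2: ttctaatatCAAAGTCCAgtccagtcag
Nat8: aagctcaggTGGACTTTGgctccctgcc

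Coordinates are those of the whole printed stretches of 28 bases, and not of the motif alone. The motif of Slc3a1 begins 39 bases before the gene start (chr17:85028299-85028326, plus strand) and that of Agxt2 21 bases before it (chr15:10358503-10358530, plus strand). The Pdzk1 motif begins 14 bases after the start (chr3:96830070-96830097, plus strand) and that of Nat8 2 bases after it (chr6:85832259-85832286, minus strand).

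Promoters were found for 1135 of 1418 protein-coding identity genes and for 76 of the 95 with a difference of 5 or more. The HNF4 motif was present in 4 of these 76 promoters (5.26%) and in 18 of the 1135 (1.59%), beside 150 of the 27026 genes of the whole promoter table (0.555%). Among genes lower in PT cells than in all 3 populations, 4 of 1494 promoters held it (0.268%). For comparison, GAGGAAGT, a motif of the myeloid factor PU.1, was in 3 of the 76 (3.95%), in 42 of the 1135 (3.7%) and in 997 of the 27026 (3.69%). These shares are descriptions of letters in a window and not of binding.

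Transcription factors were measured in the same samples. Hnf4a was at 310, 266 and 280 in the PT samples and between 1.68 and 9.48 in the other 12, a smallest log2 difference of 5.26 (from macrophages, standard error 0.42, limma adjusted p = 1.28e-08). Nr1h4, the bile acid receptor FXR, differed by 4.54 or more.

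Of 14 nephron transcription factors tested, 9 were identity genes, and 3 of these, Hnf4a and Nr1h4 among them, were called under all 6 scalings of the data. The list had a median smallest difference of 1.38. This list and those below were chosen with earlier results of these data known, so their shares are descriptions. Pax8 and Pax2, which mark nephron epithelium as a whole, were not identity genes: Pax8 was at 51.7 ± 8.07 in PT cells and 94.3 in stromal samples, and Pax2 at 16.8 ± 4.93 and 26.4. Emx1, Lhx1 and Cebpa did not pass either.

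Of 27 apical solute transporters, 22 were identity genes and 19 held under all 6 scalings, with a median smallest difference of 4.41. Slc34a1, the main phosphate transporter of the brush border, was at 6371, 5987 and 5429 in PT cells, at 105 to 130 in macrophages, at 46.0 to 196 in endothelial cells and at 27.6 to 65.6 in stromal cells. Its smallest difference was 5.67 (from macrophages, standard error 0.35, limma adjusted p = 6.27e-10). Slc5a12, a lactate transporter, was at 680, 682 and 735 in PT cells and at 3.5 to 18.6 elsewhere.

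The amino acid carriers named here were likewise highest in PT cells. Slc6a19, the neutral amino acid transporter of the early segment, was at 308 ± 38.5 in PT cells and at 8.7 or less on average in each other population. The cystine transporter subunits Slc3a1 (231 ± 15.7) and Slc7a9 (119 ± 26.8) differed by 5.55 and 5.3. Slc17a3 and Slc17a1, organic anion and phosphate carriers, were at 325 ± 34.1 and 508 ± 15.2, and the drug exporters Abcc2 and Slc47a1 at 133 ± 16.2 and 284 ± 10.4.

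The other 5 apical transporters were not identity genes. Aqp1, a water channel of the proximal tubule and also of vascular endothelium, was at 103, 109 and 106 in PT cells and at 357, 448, 403 and 331 in endothelial cells, which were 1.84 higher on the log2 scale (standard error 0.27, limma adjusted p = 2.53e-05), while it was 4.51 higher in PT cells than in macrophages. Slc15a2, Abcc4 and Slc26a6 had smallest differences of 0.65, −0.35 and 0.26 that did not pass, and Slc5a1, the glucose transporter of the late segment, was at 3.3 ± 1.4 in PT cells and 5.25 in stromal cells.

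Of 17 basolateral transporters tested, 17 were identity genes and 13 held under all 6 scalings, with a median smallest difference of 4.01. Slc4a4, the bicarbonate exit route, was at 1421, 1478 and 1452 in PT cells and at 17.1 to 40.5 elsewhere, a smallest difference of 5.74 (standard error 0.27, limma adjusted p = 3.28e-11). The organic anion transporters Slc22a8 and Slc22a6 were at 538 ± 52.3 and 351 ± 37.8, and the organic cation transporter Slc22a2 at 231 ± 5.04. Atp1b1, a sodium pump subunit used by every tubule segment, was among the closest to the others with a difference of 1.23. Slc22a7 and Slco4c1 were too low to be tested.

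In the endocytic apparatus, the receptors were identity genes and the adaptor Dab2 was not. Lrp2, which encodes megalin, was at 905, 787 and 899 in PT cells, at 10.1 to 17.9 in macrophages, at 8.49 to 22.5 in endothelial cells and at 9.7 to 21.2 in stromal cells. Cubn, which encodes cubilin, was at 238, 195 and 234 in PT cells and at 1.85 to 5.6 elsewhere. Their smallest differences were 5.7 and 5.63, and that of Amn, the partner of cubilin, was 5.14. Of the 12 genes of the list, 6 were identity genes, with a median of 1.07. Dab2 was at 875, 733 and 932 in PT cells but also at 585 to 838 in macrophages (difference 0.25, limma adjusted p = 0.231), and its groups overlapped.

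Of 21 brush border enzymes and scaffolds, 15 were identity genes and 9 held under all 6 scalings. Tmem27 (collectrin, a trafficking partner of amino acid transporters) was at 2005, 1283 and 2254 in PT cells and at 17.1 to 77.9 elsewhere, and the scaffold Pdzk1 at 494, 487 and 478 against 4.76 to 12.8. Mep1a, Vil1 and Cdhr5 differed by 5.26, 4.94 and 4.69. Several brush border peptidases did not pass against stromal cells, and Mme, Enpep and Ace also did not pass against endothelial cells. Mme (neprilysin) was at 64.0, 27.0 and 56.5 in PT cells and at 76.4 to 171 in stromal cells, and Enpep was at 59.1 ± 3.44 against 54.7. Dpep1 (295 ± 52.2 against 162, limma adjusted p = 0.0631), Dpp4, Ace and Xpnpep2 also did not pass.

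**Figure D2:**
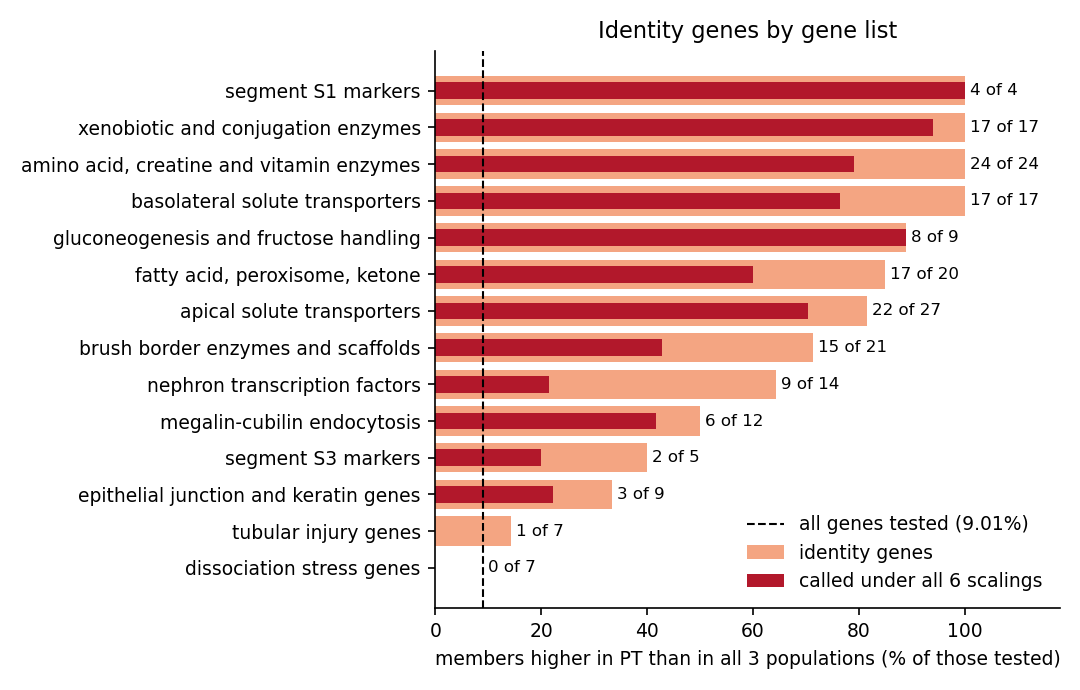
Share of tested members of each gene list that were higher in PT sham than in all 3 other populations (wide bars, % with counts), the share called under all 6 scalings (narrow bars), and the share over all genes tested (dashed line, 9.01%). All tested members of 4 lists were identity genes, while 0 of 7 dissociation stress genes were. The lists were chosen with earlier results of these data known, so the shares are descriptions.

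All 24 tested enzymes of amino acid, creatine and vitamin metabolism were identity genes, 19 of them under all 6 scalings, with a median smallest difference of 3.86. Ass1, which makes argininosuccinate for arginine synthesis, was at 6327, 6020 and 5538 in PT cells and at 58.3 to 274 elsewhere. Miox, which opens the inositol ring, was at 3538 ± 307. Cyp27b1 and Agmat were too low to be tested.

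Of 9 genes of gluconeogenesis and fructose handling, 8 were identity genes, and all 8 held under all 6 scalings. G6pc, the last enzyme of glucose release, was at 387, 436 and 507 against 3.54 to 13.4. Pck1 and Fbp1 were at 868 ± 250 and 1000 ± 195. The mitochondrial isoform Pck2 went the other way, at 5.58 ± 3.72 in PT cells and 24.7 on average in stromal cells, and was lower than in all 3 (limma adjusted p = 0.0254 or less), a call that did not hold under all 6 scalings.

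Of 20 genes of fatty acid oxidation, peroxisomes and ketone metabolism, 17 were identity genes and 12 held under all 6 scalings, with a median smallest difference of 3.03. Acsm2, a medium-chain acyl-CoA synthetase, was at 3581, 3760 and 3654 in PT cells and at 14.1 to 111 elsewhere. The peroxisomal enzymes Cat and Hao2 were at 996 ± 16.7 and 190 ± 22.8, and Ppara, which drives this pathway, at 35.2 ± 8.17 with a difference of 3.87. The carnitine shuttle gene Cpt1a and the trifunctional protein subunit Hadha were not identity genes, with differences of 0.23 and −0.28. Cyp4b1 was at 1363 ± 333 in PT cells and 816 in endothelial cells, a difference of 0.71 (limma adjusted p = 0.0214).

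All 17 xenobiotic and conjugation enzymes tested were identity genes, 16 of them under all 6 scalings, with a median smallest difference of 5.29. Gpx3, the secreted glutathione peroxidase of plasma, was the most abundant identity gene, with 4.75% of the rescaled sum of PT cells. It was measured at 51091, 47904 and 43362 in PT cells and at 708 to 1645 elsewhere, a smallest difference of 5.05 (standard error 0.22, limma adjusted p = 1.56e-11). Kap, the androgen-regulated kidney protein, was at 10661, 8117 and 11885, against 117 to 527. Fragments of paralogs such as the Cyp2d, Cyp4a, Ugt2b, Ugt3a and Acsm genes can be divided between copies by the quantification, so that single members of these families are uncertain.

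By gene symbol, 103 of 281 solute carrier (Slc) genes tested were identity genes (36.7%), 20 of 37 Cyp genes (54.1%) and 9 of 13 Ugt genes (69.2%), beside 1418 of all 13556 protein-coding genes (10.5%). Under all 6 scalings, 61 Slc, 14 Cyp and 8 Ugt genes were called. The median smallest difference was −0.28 over all Slc genes, 3.37 over Ugt genes and 1.47 over Cyp genes, where the Cyp median turned to −0.11 with FPKM as deposited and to −0.43 with TPM, and the Slc median to 0.21 with quantile normalization and to 0.2 with median of ratios. Nuclear genes of the respiratory chain depended on the scale. With mitochondrial genes left out of the scale, 33 of 46 Nduf genes of complex I and 14 of 16 Atp5 genes of the ATP synthase were identity genes, with median smallest differences of 1.06 and 1.18. With TPM, in which mitochondrial genes stay in the sum, 0 Nduf and 2 Atp5 genes were, and the medians were −0.08 and 0.04, so that the direction of the Nduf group flipped. Ribosomal protein genes (Rpl and Rps) gave 1 identity gene and 26 lower genes among 76 (34.2%, beside 13.7% of all protein-coding genes).

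The most abundant identity genes were not the most distant ones. The ferritin genes Fth1 and Ftl1, which store iron, were at 10641 ± 717 and 8930 ± 667 in PT cells but also at 6665 and 4693 in macrophages, with smallest differences of 0.68 and 0.93. Gpx1, the cytosolic glutathione peroxidase, was at 7074 ± 308 with a difference of 2.23, and Gapdh at 5165 ± 710 with a difference of 1.52. Fth1, Ftl1 and Gapdh were not called under all 6 scalings.

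A part of the identity genes lay next to each other on the chromosomes, in some places where gene families are arrayed. Of 1418 protein-coding identity genes, 437 (30.8%) had an identity gene as a direct neighbour among tested genes, beside 19.4% of all tested protein-coding genes. The 12 runs of 4 or more held 57 of them (4.02%). Not all runs were family arrays, as in the run of Abcg2, Herc3, Nap1l5 and Fam13a on chromosome 6. The longest run held 7 genes on chromosome 4 (115088708 to 115647723, GRCm38), namely Pdzk1ip1, Cyp4a12a, Cyp4a12b, Cyp4a14, Cyp4a10, Cyp4a31 and Cyp4b1. Runs of 6 held the transporters Slc22a28, Slc22a29, Slc22a30, Slc22a8, Slc22a6 and Slc3a2 on chromosome 19 (8062209 to 8723369), steroid dehydrogenases of the Hsd3b family with Hao2 on chromosome 3 (98445675 to 98893239), and Nat8 with 5 of its paralogs on chromosome 6 (85706727 to 85869158). Neighbouring paralogs can share fragments, as above.

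Among the identity genes were 41 lincRNAs of 532 tested and 28 antisense RNAs of 542 tested, beside 9.01% of all genes tested. The lincRNA AC159622.2 was at 123 ± 28.1 in PT cells and at 3.98 or less on average elsewhere. The antisense gene 0610005C13Rik was at 345 ± 88.9 with a difference of 5.15. The labels do not say whether strand was kept, so that reads of an antisense gene and of its partner cannot be told apart. The unprocessed pseudogenes Gm10925, Gm28437 and Gm29216, nuclear copies of mitochondrial sequence whose fragments can be shared with the mitochondrial genes left out of the scale, ranked among the most abundant identity genes (30721 ± 2637, 23155 ± 4393 and 7391 ± 2309). Unprocessed pseudogenes took 5.6% to 6.48% of the rescaled sum in PT samples and 0.719% to 1.74% in the other sham samples.

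Segment markers were uneven. All 4 markers of the early S1 segment (Slc5a2, Slc5a12, Slc6a19 and Slc2a2) were identity genes, and their summed level was 2223 to 2329 in PT samples. Of 5 tested markers of the late S3 segment, Slc7a13 (74.3 ± 12.6, difference 4.78) and Atp11a (difference 1.02) were identity genes, whereas Slc5a1, Cyp7b1 and Bcat1 were at 3.3, 0.968 and 0.584 on average in PT cells. Among junction and keratin genes, the claudins of the segment Cldn2 and Cldn10 (572 ± 26.4 and 160 ± 22.6) and Cdh16 were identity genes, and Cdh1, Epcam, Krt8, Krt18, Cdh2 and Cdh6 were not. Cdh1 was at 36.6, 45.5 and 42.9 in PT cells and at 48.2 to 72.1 in stromal samples.

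The identity share of genes rose with their level in PT cells. It was 145 of 5622 genes between 1 and 10 rescaled FPKM (2.58%), 712 of 6002 between 10 and 100 (11.9%), 595 of 1190 between 100 and 1000 and 74 of 100 above that. The largest smallest difference was 3.21 in the lowest of these classes (Azgp1), 5.49 in the next (Gldc), 5.85 (Slc5a12) and 5.97 (Slc5a2). The level in PT cells is part of the difference, so these shares are descriptions. The filter of a mean of at least 1 over the sham samples also removes low genes confined to PT cells. Slc22a7, at 1.94 on average in PT cells, was not tested for this reason, which lowers the share of the lowest class.

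No identity gene reached a smallest log2 difference of 6 on this scale, although PT levels among the 97 genes at 5 or more ran from 47.1 (Ugt1a10) to 47452 (Gpx3). The limit of 5 on the difference also limits the share of the PT level that these 97 genes could show elsewhere. In the 12 other samples this share had a median of 1.53% to 2.24% in macrophage samples, 1.23% to 3.35% in endothelial samples and 0.687% to 1.5% in stromal samples. Endothelial sample 3 gave the 3.35%, and the other endothelial samples 1.23% to 1.68%. Over the 669 identity genes with a PT mean of 100 or more, the medians were higher, at 9.74% to 10.8% in macrophage samples, 14.4% to 22.4% in endothelial samples and 19.8% to 21.3% in stromal samples, and endothelial sample 3 gave the 22.4%. The 3 markers Lrp2, Slc34a1 and Slc5a12 gave medians of 0.893% to 2.67% in the same samples. The source of these fragments was not tested. With median-of-ratios scaling, the 25 leading genes reached differences of 5.68 to 6.38.

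**Figure D3:**
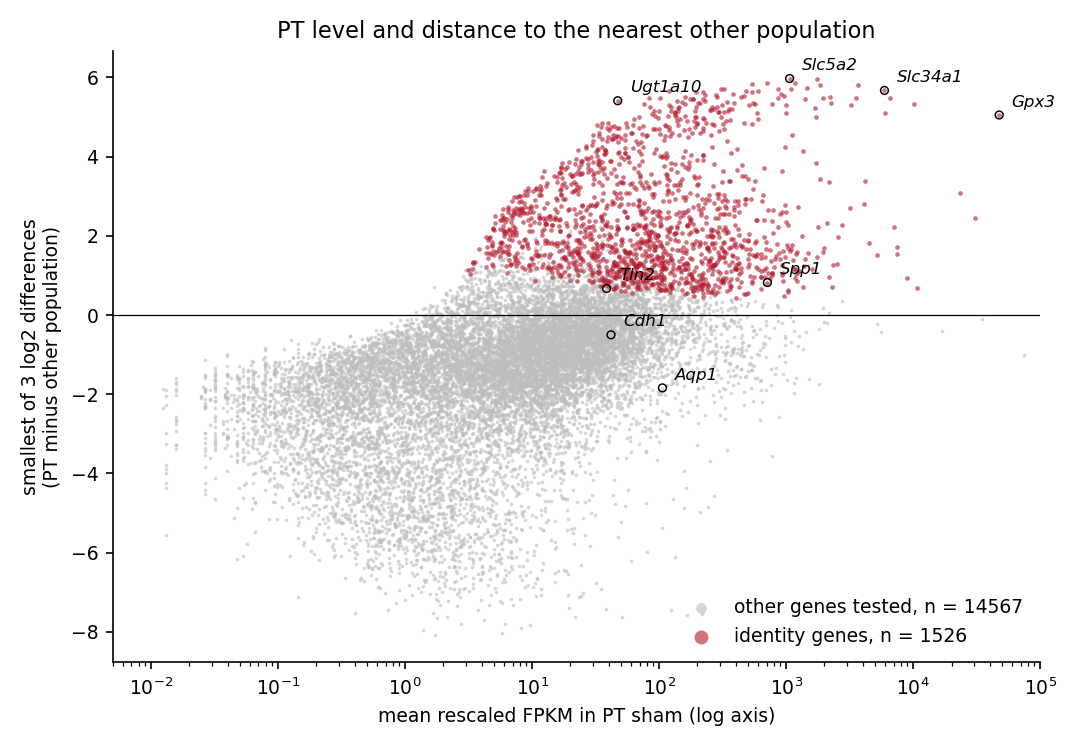
Mean rescaled FPKM in PT sham (log axis) against the smallest of the 3 log2 differences, with 1 point per tested gene (1526 identity genes in red, 14567 others in grey, and 841 genes with a PT mean of 0 not drawn). Identity genes fill a band that ends just under 6 from PT levels of about 100 up to 47452 for Gpx3.

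**Figure D4:**
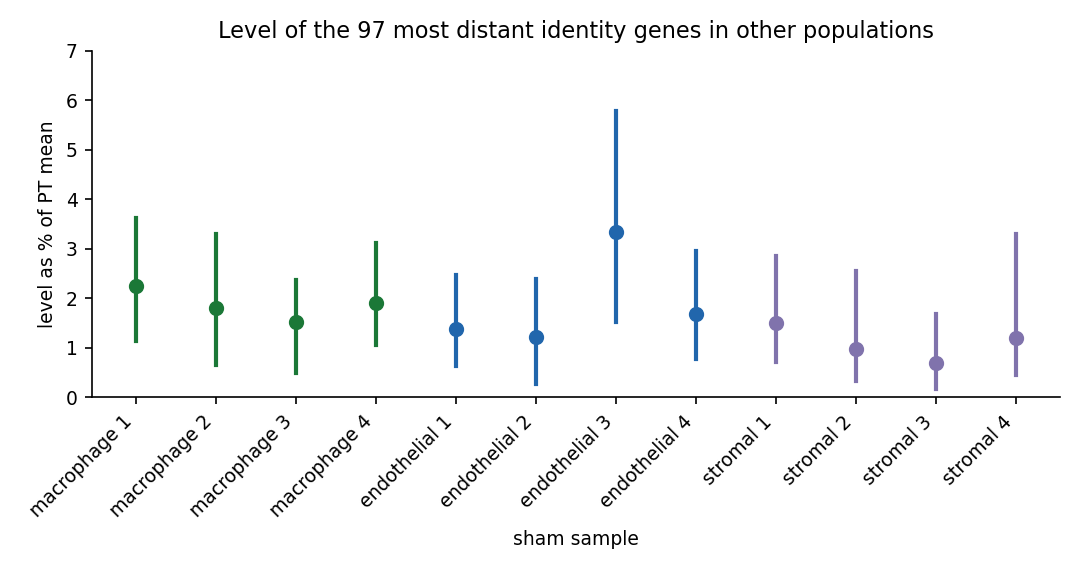
Level of the 97 identity genes with a smallest log2 difference of 5 or more in each of the 12 other sham samples, as % of the PT mean (point, median over genes; line, 10th to 90th percentile). Medians lie between 0.687% and 3.35%, with endothelial sample 3 the highest.

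A set of 7 identity genes was listed at 0 in all 12 other sham samples. Such genes passed the filter on the mean over the sham samples only through the PT samples. The share over all genes was not counted. The protein-coding members were Ugt1a10 (47.1 ± 25.6 in PT cells) and Defb19 (9.06 ± 7.85). The others were non-coding genes or pseudogenes, namely AC130222.1 (17.5 ± 23.1), Hspe1-ps6 (10.8 ± 9.75), Gm14161 (7.56 ± 4.65), Gm12962 (7.16 ± 2.92) and Gm40787 (5.92 ± 6.2). Ugt1a10 shares its 3′ exons with the other Ugt1a genes, so that fragments may be assigned to another member.

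Against single populations, 3757 genes were higher (22.2%) and 4547 lower (26.9%) in PT cells than in macrophages, 2284 higher (13.5%) and 5154 lower (30.4%) than in endothelial cells, and 1947 higher (11.5%) and 6636 lower (39.2%) than in stromal cells. The median log2 difference of all genes tested was −0.12, −0.45 and −0.72 in these comparisons, and the value of a single gene stands against that background. The 3 comparisons share the same PT samples and are not independent. The nearest population was stromal for 749 identity genes, endothelial for 487 and macrophage for 290. The counts of genes higher and lower than in all 3 populations depended on the scale. With the FPKM as deposited 835 genes were higher and 4787 lower than in all 3 populations, and with median-of-ratios scaling 2369 were higher and 1213 lower. A set of 646 identity genes was called under all 6 scalings, including all 97 genes at 5 or more.

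Among the 2040 genes lower in PT cells than in all 3 populations, Sp100 lay farthest below. Sp100, a nuclear body protein induced by interferon, was at 5.18, 4.04 and 5.74 in PT cells, at 251 to 357 in macrophages, at 349 to 445 in endothelial cells and at 179 to 267 in stromal cells, so that the difference closest to 0 was −5.27 (from stromal cells, standard error 0.19, limma adjusted p = 1.29e-12). Uba7, the ISG15-activating enzyme, was at 0.587 ± 0.287 in PT cells, Mndal at 3.17 ± 0.875 and Rtp4 at 1.57 ± 0.202, with differences closest to 0 of −5.11, −5.06 and −4.85. Pea15a was at 8.18 ± 4.87 (−4.84). Of 45 Irf, Ifi, Ifit and Oas genes tested, 23 were lower in PT cells than in all 3 populations (51.1%, beside 12% of all genes) and 1 was an identity gene. All 7 dissociation stress genes, the immediate early and heat shock genes that rise during cell preparation, were also lower (Egr1, Jun, Fosb, Fos, Hspa1a, Hspa1b and Atf3), 5 of them under all 6 scalings, with a summed level of 57.5 to 69.1 in PT samples and 324 to 885 in the others.

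Among 10 tested genes of a list made from genes that the study follows in injured kidneys, with Tln1 added as a paralog of Tln2, Ass1 was the 1 identity gene. With quantile normalization and with median of ratios, 3 of the 10 met the rule. Tln2 was at 44.5, 33.0 and 37.9 in PT cells, at 1.25 to 3.33 in macrophages, at 9.39 to 32.6 in endothelial cells and at 16.6 to 31.6 in stromal cells. All PT samples lay above all others, but the difference of 0.67 from stromal cells did not pass (standard error 0.39, limma adjusted p = 0.16). Adam10, Tln1 and Vcam1 were lower in PT cells than in all 3 populations, of which Vcam1 held under all 6 scalings and Adam10 and Tln1 did not. Of 7 tubular injury genes tested, Spp1 was an identity gene in sham kidneys (710, 721 and 698 in PT cells and 360 to 448 in stromal samples, difference 0.82, adjusted p = 0.0128), but not with FPKM as deposited or with TPM, while Havcr1 and Lcn2 were at 4.62 ± 2.45 and 2.87 ± 2.3.

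The identity genes were chosen in sham samples alone, and the 15 UUO and 14 rUUO samples measured them anew. Within UUO kidneys, 931 of the 1457 identity genes tested (63.9%) were again higher in PT cells than in the macrophages, endothelial cells and stromal cells of UUO kidneys, beside 1583 of all 16747 genes (9.45%) and 553 of 14188 genes that were not identity genes (3.9%). Within rUUO kidneys, 1065 of 1479 (72.0%) were, beside 1473 of 17105 (8.61%) and 339 of 14465 (2.34%). All 97 genes at 5 or more were higher than in all 3 populations in UUO, and all 96 tested were in rUUO. The median smallest difference of the identity genes was 1.52 in UUO and 1.7 in rUUO, beside −0.62 and −0.97 over all genes.

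**Figure D5:**
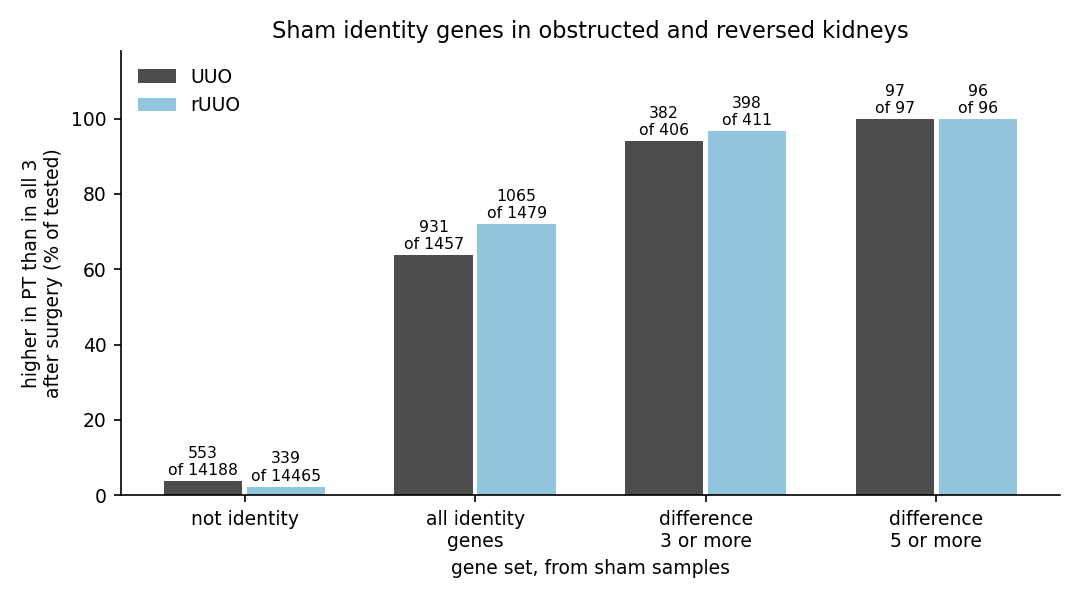
Share of genes that were higher in PT cells than in all 3 other populations within UUO (dark) and within rUUO (light), by their class in sham samples, with counts above the bars. The share runs from 3.9% and 2.34% of genes that were not identity genes to 97 of 97 and 96 of 96 genes at 5 or more.

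The levels of the leading genes in PT cells differed between UUO and rUUO for some and not for others. Slc5a2 was at 157, 132, 123 and 161 in the PT UUO samples and at 597, 531 and 435 in the PT rUUO samples, so that the groups did not overlap and rUUO was 1.85 higher (standard error 0.19, limma adjusted p = 0.00131). Its difference from the nearest population was 4.82 in UUO and 5.91 in rUUO. Slc34a1 was at 1043, 1051, 1070 and 1312 in PT UUO and at 3264, 3201 and 2717 in PT rUUO (1.45 higher, adjusted p = 0.00109). Ass1 was likewise 1.54 higher in rUUO (adjusted p = 0.00147). Guca2b, the precursor of uroguanylin, was at 934 to 1353 and at 1348 to 1554 (0.39, adjusted p = 0.306), and Hnf4a was at 139 ± 30.9 and 146 ± 6.56 (0.09, adjusted p = 0.895). Lrp2 was at 183, 224, 299 and 472 in UUO and at 465, 461 and 513 in rUUO, with overlapping groups (0.79, adjusted p = 0.203).

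Between PT rUUO and PT UUO, 64 of 1517 identity genes were higher in rUUO (4.22%) and 4 were lower, beside 75 (0.494%) and 105 (0.692%) of all 15180 genes tested. The median log2 difference was 0.35 for the identity genes and −0.14 for all genes. With a block for the replicate number, 0 identity genes were called higher and 0 lower, so that the calls for Slc5a2, Slc34a1 and Ass1 above were not made in that fit. That block leaves few samples to estimate the spread, and UUO sample 1 has no rUUO sample of its number. The fit therefore cannot separate a loss of power from an absence of differences. The count of 64 also fell to 0 without the intensity trend of limma, and it was 15 without rUUO sample 2, 21 without rUUO sample 3, and 36, 28 and 39 without UUO samples 1, 2 and 3. The count of 4 lower genes was 1 or 2 without most single samples and 5 without UUO sample 3. The higher genes included, with their differences, Tmem86b at 3.1, Cyp2d26 at 2.41, the phosphate transporter Slc34a3 at 2.14 and Gldc of glycine cleavage at 2.12. The 4 lower genes were Spp1 (difference −1.98, adjusted p = 0.00109), Fga, Fgg and Atp1b1.

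The 5 intercalated cell markers, none of them an identity gene in sham samples, were all higher in PT cells than in the 3 other populations in UUO and in rUUO. Summed over the list, PT samples held 72.7 to 99.8 in sham kidneys, against 1554 to 2375 after UUO and 842 to 1021 after rUUO. Atp6v1g3, a proton pump subunit of these cells, was at 22.2 ± 4.99 in PT sham and at 1182, 1127, 640 and 849 in PT UUO, and Foxi1, their transcription factor, at 9.24 ± 3.75 and at 412, 385, 346 and 402. Of 9 junction and keratin genes, 7 met the rule in UUO and 7 in rUUO, and Cdh1 was at 247 ± 31.1 in PT UUO. The change from sham was not tested. The dissociation stress genes, at 57.5 to 69.1 in PT sham, summed to 497 to 616 in PT UUO and to 521 to 635 in PT rUUO. The 3 PT markers summed to 1310 to 1996 in the same UUO samples, and the part of this in the UUO and rUUO values above was not tested.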

How the data were processed

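RNA of sorted cells was amplified as cDNA and sequenced by the study's authors, who deposited 1 table of FPKM for 53465 genes, with 1 column per sample, on GRCm38 (mm10). The submitters' processing notes name FastQC, Bowtie2, RSEM and DESeq2, without versions or order. Of 46 value columns, 44 were used. The other 2 share a name, and no column is named for PT sham sample 3. The table holds no counts, so depth is unknown beyond a relative estimate, and no counting interval is given.

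FPKM were rescaled to 1000000 per sample without the 37 mitochondrial genes. Genes with a mean of at least 1 over the sham samples were compared on log2(value + 1) by limma (lmFit, eBayes with trend) over the 15 sham samples, and p-values were adjusted by Benjamini-Hochberg over all genes and called under 0.05. The study states no test for these comparisons. UUO and rUUO samples were fitted in the same way. The mitochondrial share was compared by exact permutation tests. The labels give no mouse identity, so p-values measure the spread between these samples, which may be technical. The treatment label decided the group of 1 PT sample (UUO) with an ambiguous title. In simulated data on 16934 genes, the rule for identity genes recovered 58% of 100 genes raised by 2 on the log2 scale and 9% of 100 raised by 1, with 0 unchanged genes called. Each unchanged gene had the same mean in all 4 populations, with independent noise, and the raised genes were not drawn from the lowest ones. No shift of scale and no gene differing among the other populations was simulated. The 0 therefore does not measure false calls in the real data, where the count depends on the scale.

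Named genes were the 25 identity genes with the largest smallest difference whose samples did not overlap, the 5 lowest, members of gene lists and, chosen after their values were seen, pseudogenes, non-coding genes, genes of chromosomal runs and those at the threshold or listed at 0. The members and lists were chosen with earlier results of these data known. Alternatives were other scalings, pseudocounts, filters and fits, and each sample left out. Rescaling over protein-coding genes was added after seeing the data. Promoters came from RefSeq, matched by Ensembl identifier, symbol or older symbol. Some results are not reported here. R 4.3.3, limma 3.58.1, Python 3.11.15, pandas 2.3.3, scipy 1.17.1 and matplotlib 3.10.9 were used.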

Additional observations from a re-analysis of the deposited data

Results flagged for a closer look

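In 84 groups of 4 sham samples (the 3 other populations, for the mitochondrial share, the identity share, the number of genes, and the leading genes), 8 held a sample whose gap to the others was large against the group's range; chance flags about 1 in 20 groups. Endothelial sample 3 was the highest for Lrp2 (22.5 rescaled FPKM, others 8.49 to 10.8), Acsm1 (8.39, others 0.993 to 2.24) and Fut9 (16.3, others 2.59 to 3.81). Without it 1542 identity genes were called in place of 1526. Macrophage sample 1 was the highest for Tmem174 (15, others 9.62 to 9.91), stromal sample 1 for Guca2b (52.9, others 16.3 to 21.7) and stromal sample 4 for Slc3a1 (5.28, others 2.78 to 3.08). The mitochondrial share was the highest in macrophage sample 3 (28%, others 24.6% to 24.9%) and stromal sample 4 (45.8%, others up to 35.3%). All of these samples stayed below the PT samples.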

How the results depend on the processing

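With FPKM as deposited, genes higher in PT sham numbered 1784 against macrophages, 1240 against endothelial and 1120 against stromal cells, and 7439 were lower than in macrophages. With TPM (mitochondrial genes kept), these were 1600, 1055 and 855 higher, and 8205, 8752 and 10162 lower. With median of ratios, 3553 and 3505 were higher than in endothelial and stromal cells and 3376 and 3786 lower, and with quantile normalization 3300 were higher and 3561 lower than in stromal cells. Identity genes then numbered 835 (FPKM), 676 (TPM) and 2369 (median of ratios), and genes lower than in all 3 populations 4787 (FPKM), 5721 (TPM), 1191 (quantile) and 1213 (median of ratios). Identity genes called again numbered 508 (FPKM) and 411 (TPM) in UUO, and 586 and 467 in rUUO. Those higher in PT rUUO than in PT UUO numbered 18 with no filter, 42 (FPKM), 31 (TPM), 139 (median of ratios), 0 without the intensity trend and 0 with the replicate block; the cause was not tested. The 25 leading genes kept their call under all 5 other scalings, with smallest differences of 4.06 to 6.38.

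Leaving out single samples gave 1351 to 1542 identity genes and 1689 to 2124 lower genes, 3401 to 3812 higher and 3963 to 4629 lower than in macrophages, 2026 to 2312 and 4413 to 5294 for endothelial cells, 1732 to 1980 and 5700 to 6701 for stromal cells, 836 to 940 called again in UUO, 977 to 1073 in rUUO, and 15 to 64 higher in PT rUUO than in UUO. The difference in mitochondrial share was 44.2 to 47.6, 32.1 to 36 and 32.3 to 37 percentage points, with no p under 0.05 possible from fewer samples. Deviations of sham samples with the same number gave r from −0.03 to 0.13 over 21 pairs (median 0.01), 2 of them over 0.1. Over 63 pairs of sham samples with different numbers, r was −0.12 to 0.06 (median 0), with 0 over 0.1. For PT UUO and PT rUUO samples, r was 0 to 0.07 over 3 pairs with the same number and −0.06 to 0.03 over 9 with different numbers. The main fits did not pair samples by number. Whether sham samples of the same number share a mouse or a batch was not tested. With the replicate block 1525 identity genes were called in sham.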
